A study of Mus musculus with 18 samples.

Results

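The teneurins, encoded in the mouse by Tenm1, Tenm2, Tenm3 and Tenm4, were followed along the front-to-back axis of the embryonic neocortex. Members were all probes whose platform annotation gives one of these symbols, which selected 4 genes of 15063 named in the deposited table, with 9 of its 21998 probes: 2 for Tenm1, 3 for Tenm2, 2 for Tenm3 and 2 for Tenm4. All 9 had enough values to enter the fit, with 2 missing values in all. The gene IDs of all 9 probes gave the same current symbol in RefSeq's mouse annotation, in which 4 of the probes matched a RefSeq transcript of the gene. Tenm2 was chosen by its measured difference between rostral and caudal cortex, so its values are a description and carry no test.

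The samples were pools of neocortex from MF1 mouse embryos, an outbred strain, at E13.5 (E for embryonic day): 3 pools each of the rostral, middle and caudal part, from 4 embryos in all, with no genotype or treatment between them. Which embryos went into a given pool is not in the labels, so p-values measure only the spread between these pools. That spread may be partly or largely technical, as it also holds the noise of the arrays. Each of 18 arrays with 2 dyes set a pool of one region against a pool of another, with 4 arrays for each pool (2 in Cy3 and 2 in Cy5) and 6 arrays for each pair of regions. The deposited value is a log2 ratio between the pools on an array, from which 1 value per pool was fitted relative to the mean of the 9 pools. Such values compare regions for a probe and hold no absolute level, so neither genes nor probes can be ranked by abundance. In pooled tissue, fewer cells of a type and less RNA per cell cannot be told apart.

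Teneurins are large transmembrane proteins with a short tail inside the cell and a long extracellular part that holds EGF-like repeats and a barrel of YD repeats. They pair as dimers on their own membrane and bind latrophilins, adhesion G-protein-coupled receptors, on the facing cell. The fibronectin leucine-rich transmembrane (FLRT) proteins bind the same latrophilins. In the mouse brain teneurins are known for matching groups of neurons to their targets, and for work at synapses.

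The promoter windows of Tenm2, the member with the largest rostral against caudal differences, and of Tenm4, the member with the narrowest intervals around no difference, are shown for the sequence at the gene start; capitals mark the letters TAAT, the core bound by many homeodomain factors, on either strand (ATTA on the strand shown). Both come from RefSeq on build GRCm38.p6 and span 300 bases around the annotated start, most of them before it. The Tenm2 window is chr11:36944192-36944491 on the minus strand, and the first of the pair listed for Tenm4 is chr7:96170994-96171293 on the plus strand.
Tenm2 promoter: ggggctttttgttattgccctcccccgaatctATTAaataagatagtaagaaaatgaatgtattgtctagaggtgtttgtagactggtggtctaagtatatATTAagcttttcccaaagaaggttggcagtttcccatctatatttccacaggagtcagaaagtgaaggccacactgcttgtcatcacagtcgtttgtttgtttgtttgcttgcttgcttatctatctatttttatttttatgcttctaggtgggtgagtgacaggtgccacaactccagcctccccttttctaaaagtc
Tenm4 promoter: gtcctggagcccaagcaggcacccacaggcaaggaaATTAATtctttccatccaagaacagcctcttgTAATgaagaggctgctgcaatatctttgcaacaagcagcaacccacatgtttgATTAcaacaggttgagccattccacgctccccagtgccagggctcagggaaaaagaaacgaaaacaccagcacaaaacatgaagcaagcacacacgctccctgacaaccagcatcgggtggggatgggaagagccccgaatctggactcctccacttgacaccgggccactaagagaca

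The Tenm2 window held TAAT 2 times, the Tenm4 window shown 4 times and the other window listed for Tenm4 0 times, where overlapping matches on opposite strands count separately, and 58% of 32851 mouse promoter windows of the same length held it at least once. The letters AGGTCA, the half-site of many nuclear receptors, were in none of these windows on either strand, against 16.3% of all windows. CANNTG, the E-box letters, which read the same on both strands, occurred 1 time in the Tenm2 window, 2 times in the Tenm4 window shown and 3 times in the other, against 72.3% of windows with at least 1. The Tenm2 window had a GC content of 40%, against 52% and 52.3% for the Tenm4 windows and a median of 52.7% over all windows, of which 10.1% were lower than Tenm2. These matches describe letters in the windows only.

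Tenm2 was lowest in rostral, intermediate in middle and highest in caudal neocortex on all 3 of its probes. Its probes are called a (CG_Mm_3004601_1), b (CG_Mm_EXT_3110367_1) and c (CG_Mm_EXT_3113636_1) here. The rostral minus caudal difference was -0.59 ± 0.13 log2 (SE) for Tenm2-a, -0.77 ± 0.10 for Tenm2-b and -0.35 ± 0.10 for Tenm2-c, equal to levels 1.51, 1.71 and 1.27 times as high in caudal as in rostral cortex. The 3 differences ranked 518th, 277th and 1289th from the lowest among 18525 features tested, and 972nd, 483rd and 2597th by size in either direction. All features together had a median of 0.0016.

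For Tenm2-a, measured on all 18 arrays, the rostral pools had values of -0.37, -0.20 and -0.35, the middle pools 0.13, -0.01 and -0.06, and the caudal pools 0.17, 0.11 and 0.58. All rostral pools lay below all middle and caudal pools, while the highest middle pool was above the lowest caudal pool. The region means were -0.31 ± 0.10 in rostral, 0.02 ± 0.10 in middle and 0.29 ± 0.26 in caudal cortex (SD, n = 3 pools each). The wide caudal spread came from caudal pool 3, and without it the rostral minus caudal difference was -0.40. Without only the array of that pool and rostral pool 1 the difference was -0.42.

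For Tenm2-b, measured on 17 arrays, the rostral pools had values of -0.36, -0.60 and -0.28, the middle pools -0.02, 0.09 and 0.10, and the caudal pools 0.41, 0.44 and 0.23. The 3 regions did not overlap anywhere. The region means were -0.41 ± 0.17 in rostral, 0.06 ± 0.07 in middle and 0.36 ± 0.11 in caudal cortex (SD, n = 3 pools each). Among all tested features, 0.405% had their pools apart in this order, and 0.804% in this or the reverse order.

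For Tenm2-c, measured on all 18 arrays, the rostral pools had values of -0.16, -0.27 and -0.05, the middle pools -0.02, -0.07 and 0.01, and the caudal pools 0.37, 0.11 and 0.07. Every caudal pool lay above every rostral and middle pool, and the rostral and middle pools overlapped. The region means were -0.16 ± 0.11 in rostral, -0.02 ± 0.04 in middle and 0.18 ± 0.16 in caudal cortex (SD, n = 3 pools each). Leaving out caudal pool 1 brought the rostral minus caudal difference to -0.23.

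**Figure D1:**
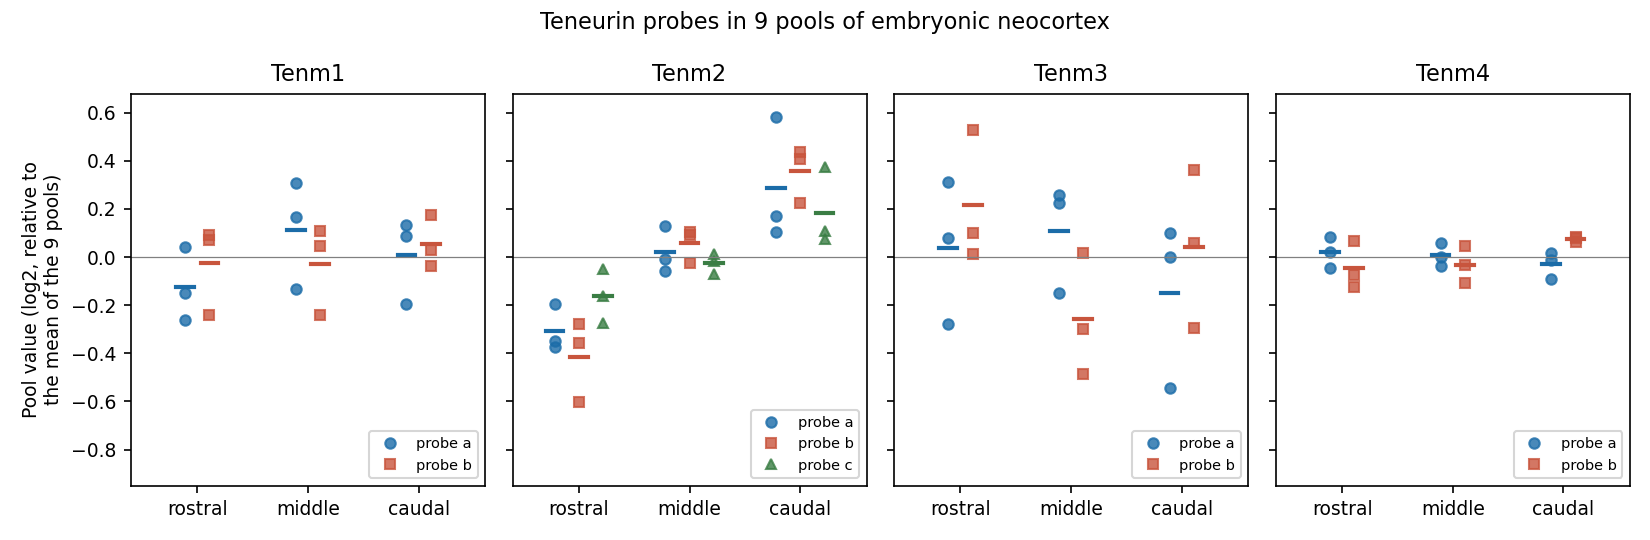
Values of the 9 teneurin probes in the 9 pools (log2, relative to the mean of the 9 pools), by gene and region; points are pools and bars are means of 3 pools. The rostral points of all 3 Tenm2 probes lie below their caudal points, while the regions overlap in most other panels, with the 3 caudal pools of Tenm4-b (0.06 to 0.08) as the tightest group.

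Every rostral pool was below every caudal pool on 3 of 3 Tenm2 probes, a pattern found in 5.89% of all features, and in 12.1% with either direction counted. Every rostral pool was below every middle pool on 2 of 3 probes (all features: 7.66%, or 12.8% in either direction), and every middle pool was below every caudal pool on 2 of 3 (all features: 4.38%, or 10.6% in either direction). The region means followed the order rostral, middle, caudal on all 3 probes, against 17.7% of all features, or 36.8% with the reverse order counted too. The comparison that chose Tenm2 is the rostral against caudal one, so nothing is read from these shares, and the probes measure the same RNA pools and are no replicates of each other.

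Middle cortex lay between the other regions. The rostral minus middle differences were -0.33, -0.47 and -0.14 for Tenm2-a, -b and -c, with SEs of 0.13, 0.10 and 0.10. The middle minus caudal differences were -0.27, -0.30 and -0.21 with the same SEs. With the 3 probes averaged, the rostral pools stood at -0.30, -0.36 and -0.23, the middle pools at 0.03, 0.00 and 0.02, and the caudal pools at 0.32, 0.22 and 0.29. On this average the pools of the 3 regions were apart, with a rostral minus caudal difference of -0.57, or 1.48 times as high in caudal cortex.

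The probes differed in how pools of 1 region were ordered. Pool values of Tenm2-b and Tenm2-c correlated at r = 0.87 across the 9 pools, Tenm2-a and Tenm2-b at 0.70, and Tenm2-a and Tenm2-c at 0.57. These values share arrays and pools and describe likeness only. Caudal pool 3 was the highest caudal pool for Tenm2-a and the lowest for both other probes.

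The single arrays also had lower rostral values. On the 6 arrays that carried a rostral and a caudal pool, with the dye effect removed, Tenm2-a gave log2 ratios from -1.72 to -0.36 with a median of -0.51, all 6 below 0. Tenm2-b ranged from -1.07 to -0.57 with a median of -0.86, also with 6 of 6 below 0. Tenm2-c ranged from -0.98 to -0.09 with a median of -0.33, again with 6 of 6 below 0. The lower rostral value was thus seen with the rostral pool in either dye.

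The arrays across shorter distances were closer to 0. Rostral over middle ratios were below 0 on 5 of 6 arrays for Tenm2-a, 6 of 6 for Tenm2-b and 5 of 6 for Tenm2-c, with medians of -0.20, -0.42 and -0.14. Middle over caudal ratios were below 0 on 6 of 6 arrays for Tenm2-a, 3 of 5 for Tenm2-b and 6 of 6 for Tenm2-c, with medians of -0.10, -0.32 and -0.14.

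**Figure D2:**
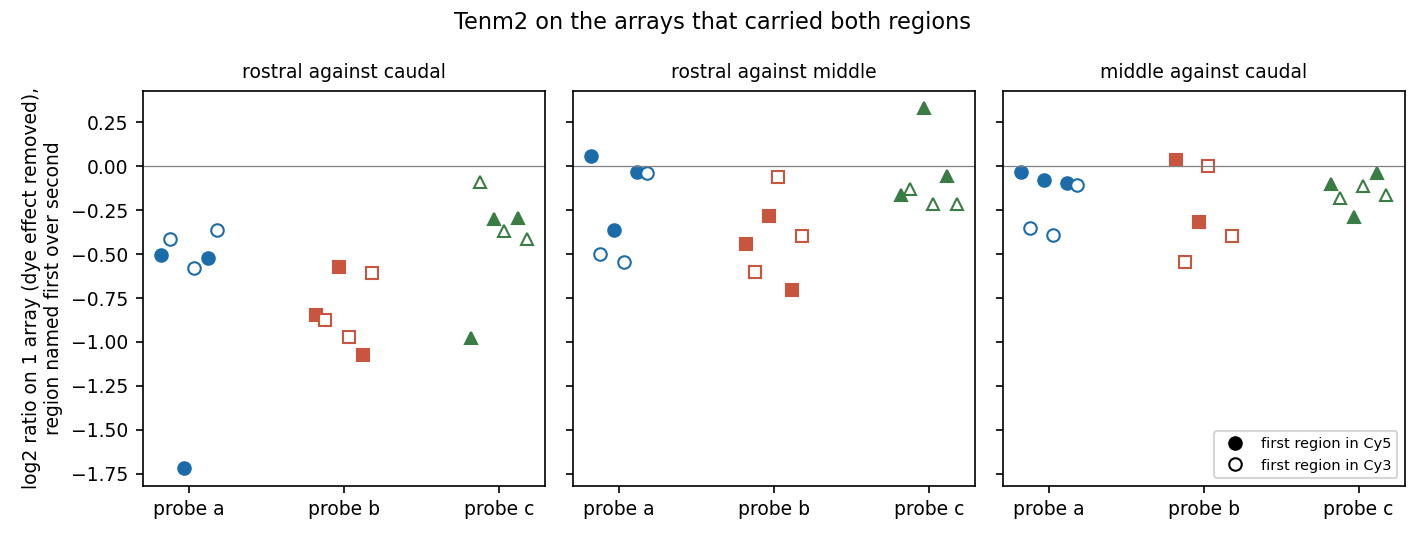
Log2 ratios of the 3 Tenm2 probes on the single arrays that carried both regions (vertical axis, dye effect removed, first-named region over second), filled where the first region was in Cy5 and open where it was in Cy3. All rostral over caudal points lie below 0, and 1 array stands apart at -1.72 for probe a.

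Reading the ratios as Cy5 over Cy3 is likely but not stated in the labels. Its basis here is the direction of Nr2f1, the nuclear receptor COUP-TFI with a known high caudal level in the mouse cortex, which was lower in rostral pools under this reading (-1.02 ± 0.07, SE). With the opposite reading all signs would turn together, so ranks from the lowest would become ranks from the highest.

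None of the Tenm2 probes was among the features that passed the fit's threshold in any comparison, and the other teneurins gave no difference that passed either. None of the 6 probes of Tenm1, Tenm3 and Tenm4 had an adjusted p under 0.05 in any of the 3 comparisons (limma with Benjamini-Hochberg adjustment over all features). Over all features 12 passed in rostral against caudal (0.0648%), 3 of them lower in rostral cortex (0.0162%) and 9 higher (0.0486%), and 7.9% had an unadjusted p under 0.05. In rostral against middle and in middle against caudal 0 features passed in limma, where 973 (5.25%) and 901 (4.86%) had an unadjusted p under 0.05. The 0 of 6 teneurin probes thus stands beside a background near 0. A difference between Tenm2 and the other teneurins was not tested, because Tenm2 was chosen for its values.

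Tenm1, the X-linked family member, was measured by probes a (CG_Mm_3004596_1) and b (CG_Mm_EXT_3104330_1). Tenm1-a had values of -0.26, -0.15 and 0.04 in rostral, 0.31, -0.13 and 0.17 in middle and 0.09, 0.13 and -0.19 in caudal pools. The regions overlapped, and the rostral minus caudal difference was -0.13 (95% interval -0.47 to 0.21; limma adjusted p = 0.923). Tenm1-b had values of 0.09, 0.07 and -0.24 in rostral, -0.24, 0.11 and 0.05 in middle and -0.04, 0.03 and 0.17 in caudal pools. Its regions overlapped too, with a difference of -0.08 (95% interval -0.38 to 0.22; limma adjusted p = 0.950). The pool values of the pair of probes ran opposite to each other (r = -0.69 over 9 pools), so they do not describe a shared pattern.

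Tenm3, known in the mouse for topographic wiring of the visual system and hippocampus, was measured by probes a (CG_Mm_3004582_1) and b (CG_Mm_EXT_3112941_1). Tenm3-a had values of 0.31, -0.28 and 0.08 in rostral, -0.15, 0.22 and 0.26 in middle and 0.00, 0.10 and -0.54 in caudal pools. Tenm3-b had values of 0.53, 0.01 and 0.10 in rostral, -0.30, -0.48 and 0.02 in middle and 0.06, -0.29 and 0.36 in caudal pools. Pools of 1 region spread widely and all regions overlapped on both probes. The rostral minus caudal differences were 0.18 (95% interval -0.34 to 0.71; limma adjusted p = 0.935) for Tenm3-a and 0.17 (-0.34 to 0.68; limma adjusted p = 0.938) for Tenm3-b. These intervals were the widest of the family in this comparison.

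The residual spread between arrays was 0.59 log2 for Tenm3-a and 0.73 for Tenm3-b, against 0.22 to 0.39 for the Tenm2 probes. Tenm3-a also had the largest dye effect of the family, 0.66 log2. The largest difference outside Tenm2, rostral minus middle for Tenm3-b, was 0.47 ± 0.22 (SE; limma adjusted p = 0.951). It came to 0.15 without 1 array of rostral pool 1 and middle pool 2.

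Tenm4, which in mice is needed for oligodendrocyte development, was the most evenly spread member. Tenm4-a (CG_Mm_3004597_1) had values of 0.02, -0.04 and 0.09 in rostral, 0.00, -0.04 and 0.06 in middle and 0.02, -0.01 and -0.09 in caudal pools. Tenm4-b (CG_Mm_3007191_1) had values of 0.07, -0.07 and -0.12 in rostral, -0.11, 0.05 and -0.03 in middle and 0.08, 0.06 and 0.08 in caudal pools. On Tenm4-b all caudal pools lay above all middle pools, the only gap between regions among the 6 probes (all features for this pair: 10.6% in either direction), and a rostral pool reached into the caudal range. The rostral minus caudal differences were 0.05 (95% interval -0.09 to 0.19; limma adjusted p = 0.927) and -0.12 (95% interval -0.28 to 0.04; limma adjusted p = 0.791).

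**Figure D3:**
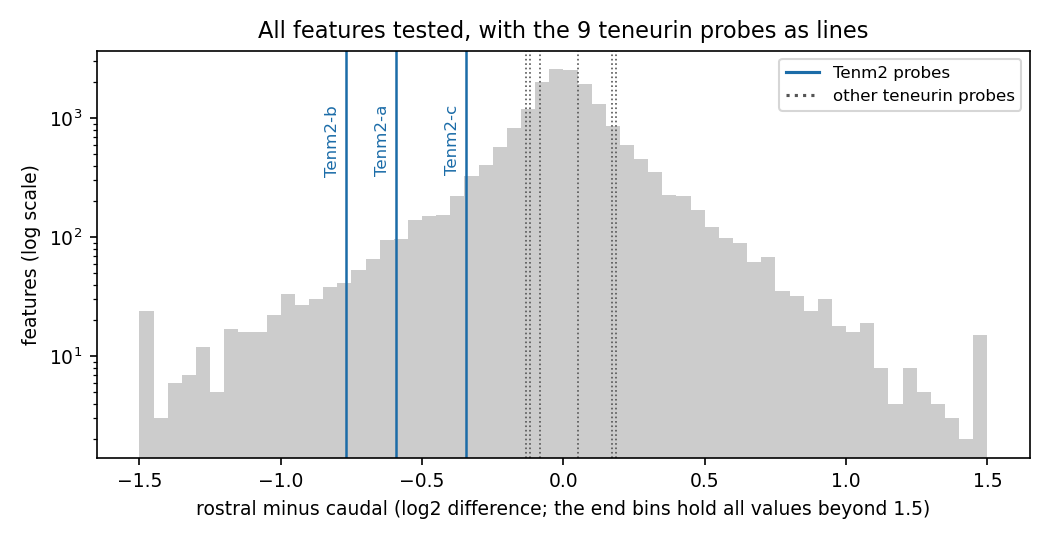
Rostral minus caudal difference (log2) of all 18525 features as a histogram with a log count axis; solid lines mark the Tenm2 probes and dotted lines the 6 other teneurin probes. The Tenm2 lines at -0.77, -0.59 and -0.35 lie in the lower tail, and the others lie between -0.13 and 0.18.

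Genes that act with teneurins were taken as a list of 13: latrophilins, FLRT proteins, the UNC5 netrin receptors that FLRT proteins also bind, and proteins reported to bind teneurin-1 (among them Dag1 and Mbd1). Of these, 7 were measured, and none passed in any comparison. In rostral against caudal cortex 3 were below 0 and 4 above, with a median of 0.03. Adgrl2, Flrt1, Flrt2, Unc5a and Unc5d were among those not analysed here.

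Flrt3, a latrophilin and UNC5 ligand, was the partner with the largest rostral minus caudal difference. It had values of -0.19, -0.28 and -0.17 in rostral, -0.21, 0.04 and 0.05 in middle and 0.40, 0.16 and 0.21 in caudal pools. All caudal pools lay above all others, and the rostral minus caudal difference was -0.47 ± 0.10 (SE), with a limma adjusted p of 0.191. Among all features, 12.1% had rostral and caudal pools apart and 10.6% had middle and caudal pools apart, in either direction.

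Among the latrophilins, the teneurin receptors, Adgrl1 had values of -0.06, 0.14 and 0.19 in rostral and 0.00, -0.16 and -0.25 in caudal pools. Its difference was 0.22 ± 0.11 (SE; limma adjusted p = 0.733) and its pools overlapped, and another probe of the gene gave 0.10. Adgrl3 differed by -0.01 ± 0.23 (SE; limma adjusted p = 0.996), with rostral pools as far apart as 0.58 and -0.41.

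The remaining partners did not pass either. Dag1, dystroglycan, an extracellular matrix receptor, differed by -0.10 ± 0.05 (SE; limma adjusted p = 0.765), and its pool values correlated with those of Tenm2-a at 0.77, against 0.67 for Flrt3. Mbd1, a reader of methylated DNA, differed by 0.03 ± 0.06 (SE; limma adjusted p = 0.960). The UNC5 receptors Unc5c and Unc5b differed by 0.14 ± 0.22 and 0.09 ± 0.43 (SE; limma adjusted p = 0.948 and 0.987). The rostral pools of Unc5b ranged from -0.91 to 0.99, so its difference was hardly measured.

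**Figure D4:**
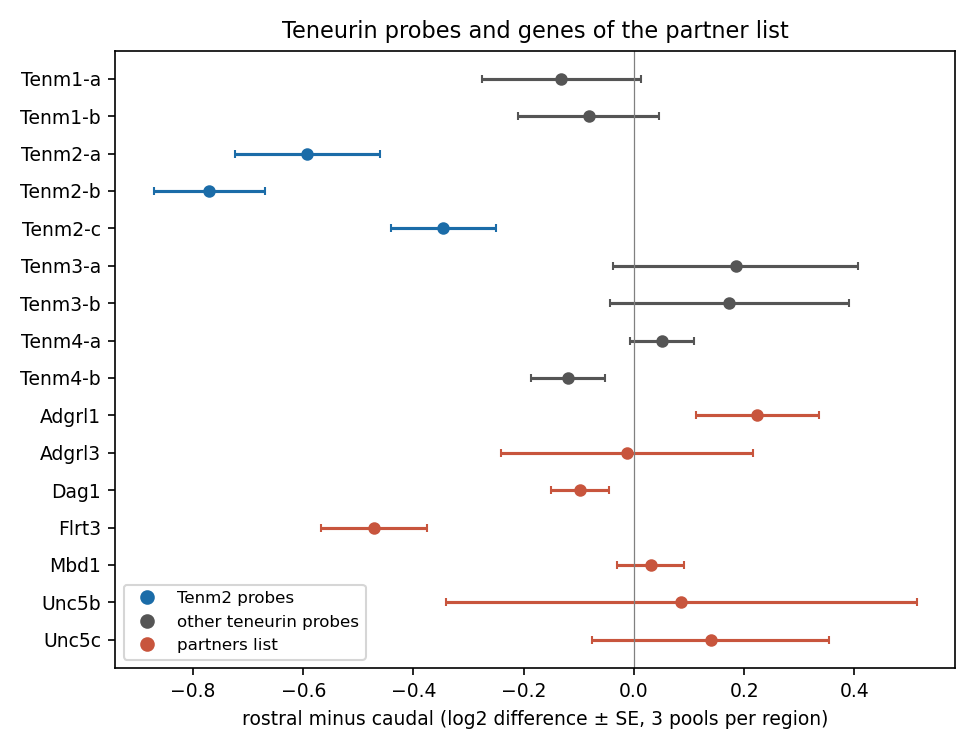
Rostral minus caudal difference (log2, horizontal axis) with its SE for the 9 teneurin probes and the 7 measured genes of the partner list, from 3 pools per region. The 3 Tenm2 probes and Flrt3 (-0.47) lie farthest below 0, and most other bars reach 0.

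Other families of trans-synaptic adhesion proteins (neurexins, neuroligins, LRRTM, BAI, cerebellin, SLITRK and LAR-type phosphatases) had 12 of 24 genes measured, and none passed. Their median rostral minus caudal difference was -0.02, with 6 genes below 0 and 6 above. Lrrtm1, a postsynaptic neurexin partner, differed by -0.15 ± 0.06 (SE; limma adjusted p = 0.595). Slitrk5 had the largest difference, -0.98 ± 0.44 (SE; limma adjusted p = 0.668), with an SD of 0.83 among its caudal pools.

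The tissue was checked against markers of the cell types it could hold. Of 18 measured genes of cortical neurons, the cells in which Tenm2 is best known, none passed and the median rostral minus caudal difference was 0.01. The nearest was Fezf2, a regulator of deep-layer neurons, at -0.28 ± 0.05 (SE; limma adjusted p = 0.167). Bcl11b, another deep-layer regulator, lay the other way at 0.21 ± 0.05 (SE; limma adjusted p = 0.283), and another probe of it gave 0.46 ± 0.08 (SE). Of 15 progenitor genes, all measured, 1 passed (all features: 0.0648%): Vim, the radial glia intermediate filament, was lower in rostral cortex by -0.51 ± 0.05 (SE; limma adjusted p = 0.0389), and the list's median was 0.03, with 4 genes below 0 and 11 above. Slc1a3, the radial glia glutamate transporter GLAST, lay the other way at 0.32 ± 0.05 (SE; limma adjusted p = 0.156), and further probes of it gave 0.32 and 0.22. Vim no longer passed when any 1 of the 9 pools was left out, or without centring of the arrays.

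Markers of cells outside the cortical wall lay partly in the direction of Tenm2. Of 13 measured genes of meninges and mesenchyme, 11 were below 0 in rostral against caudal cortex, with a median of -0.13, and none passed. The list's median ranged from -0.13 to 0.00 over rostral pools, from -0.04 to 0.05 over middle pools and from 0.01 to 0.12 over caudal pools. Ptgds, a meningeal enzyme, differed by -0.66 ± 0.13 (SE; limma adjusted p = 0.188), and Dcn, decorin, by -0.39 ± 0.09 (SE; limma adjusted p = 0.233). Cxcl12 differed by -0.27 ± 0.07 (SE; limma adjusted p = 0.310) and Fn1 by -0.17 ± 0.05 (SE; limma adjusted p = 0.340). Another Fn1 probe gave -0.08 ± 0.08 (SE). The region means of Cxcl12 and Fn1 followed the order rostral, middle, caudal, like those of Tenm2. The mean of Ptgds was lowest in middle cortex (-0.33, against -0.16 for rostral), unlike Tenm2, while that of Dcn was lowest in rostral cortex (-0.14). Zic1 and Twist1 lay the other way, at 0.29 and 0.11. Lum, Col1a1, Bgn and Aldh1a2 differed by -0.33, -0.15, -0.13 and -0.09. Col1a2, Col3a1 and Igf2 hardly differed, at -0.04, -0.01 and -0.003. The part of meninges and mesenchyme in the Tenm2 result was not tested. Ratios give no level by which a defining marker could be called absent.

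The other lists had no member that passed. The 6 measured red blood cell genes had a median of -0.24, with list medians from -0.35 to 0.00 over rostral and from -0.15 to 0.17 over caudal pools. Of them 4 were below 0 and 2 above. Alas2 differed by -0.32 ± 0.07 (SE; limma adjusted p = 0.193) and Slc4a1 by 0.28 ± 0.14 (SE; limma adjusted p = 0.727). The medians were -0.07 for 9 endothelial genes, 0.00 for 6 Cajal-Retzius genes, 0.01 for 9 ventral telencephalon genes and 0.14 for 6 genes of diencephalon and choroid plexus. Reln, the signal secreted by Cajal-Retzius cells, differed by -0.36 ± 0.08 (SE; limma adjusted p = 0.227), while another Reln probe gave -0.04 ± 0.10 (SE). Of the Cajal-Retzius genes 3 lay below 0 and 3 above. Gsx2, a ventral progenitor factor, differed by -0.53 ± 0.12 (SE; limma adjusted p = 0.225). Of the ventral telencephalon genes 4 lay below 0 and 5 above, the highest at 0.05. The median of the Gapdh control spots, which also varied, ran from -0.15 to -0.04 in rostral pools, from 0.07 to 0.09 in middle pools and from -0.14 to 0.15 in caudal pools, and with it as a covariate the rostral minus caudal differences of Tenm2-a, -b and -c were -0.46, -0.86 and -0.47.

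Of 20 measured genes of cortical area patterning, 1 passed in each direction (all features: 0.0648% in either direction), at most 1 in all when any 1 pool was left out and 0 without centring. Nr2f1 was lower in rostral cortex (limma adjusted p = 0.0138; another probe gave -1.02 ± 0.17, SE), with pool values of -0.51, -0.46 and -0.69 in rostral, 0.07, 0.04 and 0.13 in middle and 0.45, 0.45 and 0.51 in caudal pools. The direction of Nr2f1 was the basis for reading the ratios, as said above, so its sign is no result. Nr2f1 followed the same order of regions as Tenm2, over a wider range. Etv1, an ETS factor downstream of FGF signalling, was higher in rostral cortex by 0.80 ± 0.07 (SE; limma adjusted p = 0.0272). Spry2, an FGF feedback inhibitor, differed by 0.46 ± 0.06 (SE; limma adjusted p = 0.0620), Crym, a thyroid hormone binding protein, by -0.44 ± 0.07 (SE; limma adjusted p = 0.150) and Lmo4, a LIM-domain cofactor, by -0.41 ± 0.08 (SE; limma adjusted p = 0.193).

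**Figure D5:**
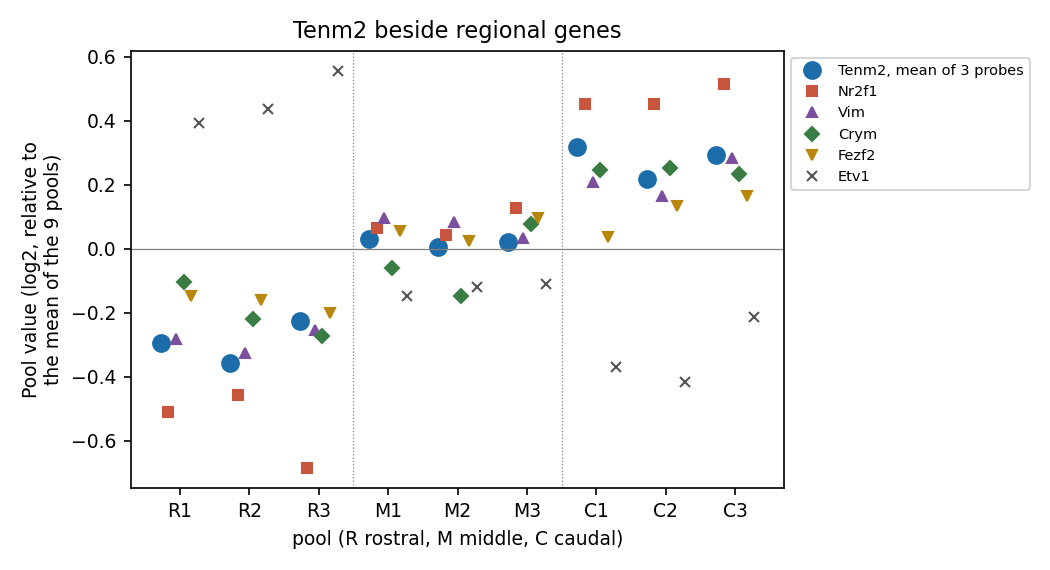
Pool values (log2, relative to the mean of the 9 pools) of Tenm2, as the mean of its 3 probes, beside Nr2f1, Vim, Crym, Fezf2 and Etv1 in each pool. Tenm2 lies between -0.36 and -0.23 in rostral, near 0 in middle and between 0.22 and 0.32 in caudal pools, inside the range of Nr2f1, while Etv1 runs the other way.

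Likeness to Tenm2 was measured as the Pearson correlation with Tenm2-a over the 9 pool values, among 10382 named features with values on all 18 arrays. The highest were Setd5 at 0.96 and Cdc42ep3, a Cdc42 effector, and Clic4, a chloride intracellular channel protein, both at 0.95. Then came Stub1 (an E3 ubiquitin ligase and co-chaperone), Crisp3, Sstr2 (a somatostatin receptor), Pdk2 (a pyruvate dehydrogenase kinase), Naa50 (an N-terminal acetyltransferase), Rtn3 (a reticulon) and Fkbp1a (the FK506-binding protein), all at 0.94. Their own rostral minus caudal differences were between -0.56 for Naa50 and -0.13 for Crisp3. The lowest correlations were those of Hivep1 and Ttc14 at -0.95, Anp32e at -0.94 and Ist1 and D4Wsu132e at -0.93. Among genes of the fixed lists, Vim correlated at 0.90, Nr2f1 at 0.88 and Fezf2 at 0.86 with Tenm2-a. The red blood cell gene Alas2 followed at 0.85, Emx2 of the area patterning list at 0.84 and Fn1 of the meninges and mesenchyme list at 0.83. Spry2 and Etv1 were lowest, both at -0.78. The pools share arrays and fall into 3 regions, and the ranking leans on caudal pool 3, where Tenm2-a was highest. That high value rests in part on 1 array, at -1.72 in rostral over caudal. For Tenm2-b and Tenm2-c caudal pool 3 was the lowest caudal pool. The correlations thus describe likeness to Tenm2-a, not to all 3 probes, and carry no test.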

How the data were processed

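Total RNA extracted with Trizol, per the labels, from 9 pools of mouse neocortex was measured on 18 arrays with 2 dyes. The deposited values are log2 ratios, 1 per probe and array; the scanner, background correction and earlier normalization: not given in the sources used here. They were read as Cy5 over Cy3, likely but unstated. Of the 21998 probes, 232 were Gapdh control spots, 16632 had 1 gene symbol, 139 several and 4995 none. The 1477 values at the table's ceiling, a ratio of 1e+05 (39 to 221 per array, 0 among teneurins), were set to missing after the data had been seen. Array medians ran from -0.093 to 0.612, so each array was centred on its median. Arrays held 18315 to 20924 values. The number of pools and the spread between arrays limit the precision of the comparisons between regions.

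Per feature, least squares gave 9 pool values and a dye effect. Fitting required values on 12 arrays, with 2 or more for every pool, and covered 18525 features of 13379 genes. Pool values were tested with lmFit and eBayes of limma 3.58.1 in R 4.3.3, region as factor, with 6 residual and 1.26 prior degrees of freedom and Benjamini-Hochberg adjustment over all features at 0.05. The SE is the moderated one. The procedure was tested on simulated data. Figures used Python 3.11.15 and matplotlib 3.10.9.

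Members and lists were chosen with earlier results of these data known. The text names all teneurin probes, all measured partners, list members that passed and up to 4 others per list by lowest p. It also names the 10 most and 5 least like features. Further list members outside this rule were named beside these, among them some that lay the other way. A list gene with several probes is represented by the one with values on most arrays. Alternatives were centring, capped values, filters, the Gapdh median as covariate, the pool number as block, a mean-variance trend, single pools or arrays left out, direct arrays alone, and robust (Huber) pool values, the last added after seeing the data.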

Additional observations from a re-analysis of the deposited data

Results flagged for a closer look

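Within the 27 groups of 5 or 6 arrays that carried the same pair of regions, 6 had 1 array far from its group by Dixon's test. Its chance rate of about 1 in 20 holds for independent values. The arrays of a group share pools and a fitted dye effect, so the rate for these groups is not known. Tenm2-a (probe CG_Mm_3004601_1) gave -1.72 in rostral over caudal on the array of rostral pool 1 and caudal pool 3, against a median of -0.51. Tenm2-c (probe CG_Mm_EXT_3113636_1) gave -0.98 in rostral over caudal on the array of rostral pool 2 and caudal pool 1, against a median of -0.33. On the array of rostral pool 3 and middle pool 2, Tenm2-c gave 0.33 in rostral over middle, against a median of -0.14. Without the first of these arrays the rostral minus caudal difference of Tenm2-a was -0.42. That of Tenm2-c was -0.27 without the second and -0.38 without the third.

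Tenm3-a (probe CG_Mm_3004582_1) gave -0.98 in rostral over middle on the array of rostral pool 2 and middle pool 3. Tenm3-b (probe CG_Mm_EXT_3112941_1) gave 1.30 in rostral over caudal on the array of rostral pool 3 and caudal pool 2. On the array of rostral pool 1 and middle pool 2, Tenm3-b gave 2.45 in rostral over middle, against a median of 0.13. Without that array and without the one before it, Tenm3-b differed by 0.15 in rostral against middle and by -0.03 in rostral against caudal.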

How the results depend on the processing

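The rostral minus caudal, rostral minus middle and middle minus caudal differences of the 3 Tenm2 probes stayed below 0 under every alternative that gave a value, and none of the 6 other teneurin probes passed under any of the alternatives with a test. With the Gapdh median as covariate, Tenm2-c came to -0.47 in rostral against caudal, and Tenm2-a, -b and -c to -0.11, -0.61 and -0.34 in rostral against middle. Without centring, middle minus caudal came to -0.44, -0.48 and -0.38, where the median of all features shifted by -0.17 (rostral minus middle 0.10, rostral minus caudal -0.07). Leaving out single pools or arrays, rostral minus caudal ranged from -0.68 to -0.40 for Tenm2-a and from -0.40 to -0.23 for Tenm2-c. The robust pool values gave -0.48, -0.77 and -0.32. The number of features that passed in rostral against caudal, 12, was 0 without centring, with the Gapdh covariate, with the pool number as replicate block or with the variance trend, 7 without the filter and 46 with only features on all arrays, and ranged from 0 to 17 with 1 pool or array left out: at most 4 without any 1 pool, 2 without the array of rostral pool 1 and middle pool 2, and 17 without that of middle pool 1 and caudal pool 3. Progenitor genes that passed, 1, were 0 under the first 4 of these and without the filter, and 0 to 1 with a pool or array left out. Area patterning genes that passed, 2, were 0 under those 4 and 0 to 2 with a pool or array left out; without any 1 pool at most 1 passed. The causes were not tested. Same-numbered pools never shared an array, and their deviations correlated at -0.43 to -0.06. The fit itself can make pools without a shared array look opposed, so these correlations cannot show whether the numbers pair the pools. The labels do not say it either. A block with each number once per region cannot move a difference between regions. The direct arrays alone and the robust values give no test, and Tenm2-b and Tenm3-a have no fit restricted to probes on all arrays. With 3 pools a region, from 4 embryos in all, precision is limited by the number of pools and by the spread between arrays. The SD between pools of a region, pooled over the 3 regions, was 0.17, 0.12 and 0.12 for Tenm2-a, -b and -c. The residual spread between arrays was 0.39, 0.24 and 0.22. How much of the spread between pools is array noise was not tested.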
